A study of Mus musculus with 16 samples.

Results

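The 8 libraries described here show what a JNK inhibitor did to gene expression in mouse islet cells transduced with adenovirus labelled Cre. They were chosen by their labels out of 16 libraries: the 4 labelled Ad-Cre + JNK inhibitor were compared with the 4 labelled Ad-Cre, which received DMSO, the solvent of the inhibitor. All came from Grp78 flox/flox mice, whose Hspa5 gene (encoding GRP78, also called BiP) carries sites for Cre recombinase, so this genotype is shared by every group, controls included. Islets were dispersed to single cells and transduced with adenovirus carrying Cre or, for the control groups Ad-LacZ and Ad-LacZ + JNK inhibitor, the bacterial LacZ gene, at a multiplicity of infection of 20. Cultures were kept for 72 hours in 15 mM glucose, with JNK-IN-8, added at the start, or with DMSO. The study's methods give mice of 12 to 60 weeks of age. The viral Cre was driven by the CMV promoter, which is not restricted to beta cells, so any cell type of the culture could be reached. Each of 4 islet preparations, labelled F1 and F2 (female) and M1 and M2 (male), gave 1 library per group. The titles list 2 animal numbers per preparation whereas the study counts 4 mice, so whether preparations pooled animals cannot be told apart from the labels. The libraries were poly(A) RNA-seq, and the deposited values are RPKM (read counts divided by transcript length and library size). Levels below are RPKM after scaling by TMM (trimmed mean of M-values) factors and are given in the order F1, M1, M2 and F2.

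JNK kinases are the last tier of a stress-activated cascade in which MAP3 kinases activate MKK4 and MKK7, which in turn phosphorylate JNK on scaffold proteins of the JIP family. Active JNK phosphorylates the transcription factor c-Jun, which pairs with Fos and ATF proteins in the AP-1 complex and acts on its own gene, and dual-specificity phosphatases (DUSPs) switch the kinases off again. In cells under endoplasmic reticulum (ER) stress the sensor IRE1 can start this cascade, alongside the unfolded protein response (UPR), which raises chaperones through ATF6 and XBP1 and stress regulators such as CHOP through PERK and ATF4. JNK-IN-8 binds covalently to all JNK isoforms.

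Hspa5, the targeted gene, had 1112, 1096, 1114 and 1468 RPKM in the Ad-Cre libraries and 1506, 1509, 1260.5 and 1668 RPKM in the Ad-Cre + JNK inhibitor libraries. On a scale set over all 16 libraries, its level was 425 ± 65.8 RPKM in Ad-LacZ and 407 ± 94.9 RPKM in Ad-LacZ + JNK inhibitor (SD, n = 4 each). Total Hspa5 RPKM was thus higher in the libraries labelled Ad-Cre than in Ad-LacZ, and so were other ER chaperone genes: Hsp90b1 had 532 ± 90.8 RPKM in Ad-LacZ and 1751 ± 421 RPKM in Ad-Cre, and Creld2 had 51.0 ± 5.36 and 644 ± 204 RPKM (SD, n = 4 each). The values are not split by exon, so a deletion of the floxed part could not be checked, and Ad-Cre below means the libraries labelled so. Between the Ad-Cre groups Hspa5 did not pass the test (log2 difference 0.32, SE 0.10, limma's adjusted p = 0.111), with a negative sign under quantile normalization (-0.22) and an adjusted p of 0.03 by limma without M2. The smallest steps by which low values differ gave a depth of 14.2 to 23.8 M reads in Ad-Cre and of 7.7 to 20.7 M reads with inhibitor (M, mega). The shallowest library, Ad-Cre + JNK inhibitor F2, is also the only one of the 16 whose column header has another prefix and another final code. The labels do not say what these codes stand for. Islet identity was clear in all 8 libraries: Ins1 was between 9457 and 30090 RPKM, whereas the 12 acinar markers summed to between 3.09 and 10.6 RPKM and 4 of them were listed at 0 throughout.

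Genes entered the test where 4 or more of these 8 libraries exceeded 1 RPKM, which 11503 did. With these, limma with the preparation as a block called 455 higher and 235 lower with the inhibitor, at an adjusted p under 0.05 and a fold above 1.2. That is 6% of the genes tested, 3.96% higher and 2.04% lower, and each of the 690 moved the same way in 4 of 4 preparations. Counts of called list members below are to be read beside these shares of 3.96% and 2.04%. Of all genes tested 46.2% had a positive difference, 16.9% were higher and 19.6% lower in 4 of 4 preparations, and 7% (805 genes, 301 of them called) had groups that did not overlap. The split depended on the scaling: RPKM as deposited gave 204 higher and 715 lower, with the median of all genes at -0.14 on the log2 scale instead of -0.02, and quantile normalization gave 134 higher and 105 lower. Calls depended on F1, M1 and F2. Without F1, M1 or F2 no gene passed the adjusted p (1968, 1720 and 1866 passed the unadjusted p and the fold), without M2 2404 genes passed, and without the block 0 passed and 1012 had an unadjusted p under 0.05 and the fold. Below, a gene "rose" or "fell" where it passed the adjusted test with all 4 preparations, and differences are on the log2(RPKM + 1) scale, which understates changes of low genes.

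Jun and Jund, encoding AP-1 subunits of the Jun family, fell with the inhibitor, and the related Junb did not. Of 13 AP-1 factors listed, 8 were above the filter and 2 fell, none rose, with a median log2 difference of -0.28 against -0.02 for all genes. Jun, which encodes c-Jun (chr4:95049034-95052222, minus strand, GRCm38), had 17.3, 16.3, 28.1 and 20.6 RPKM in Ad-Cre and 8.91, 7.65, 13.7 and 9.91 RPKM with the inhibitor. The groups did not overlap, and Jun was lower by a like amount in each preparation (-0.89, -1.0, -0.98 and -0.99 on the log2 scale), giving log2 difference -0.97, SE 0.06, limma's adjusted p = 0.0105. Jund, which encodes JunD, went from 112, 115, 91.0 and 86.4 to 74.0, 67.5, 31.4 and 57.0 RPKM, again without overlap (log2 difference -0.86, SE 0.16, limma's adjusted p = 0.0393). Junb had 3 preparations higher and 1 lower and did not pass the test (log2 difference -0.05, SE 0.20, limma's adjusted p = 0.89). Fos was higher in every preparation, at 3.98, 3.17, 3.81 and 3.34 RPKM in Ad-Cre and 5.18, 4.21, 4.72 and 4.42 RPKM with inhibitor, and its groups did not overlap, but it missed the threshold (log2 difference 0.30, SE 0.07, limma's adjusted p = 0.0573). Fosl2, Jdp2, Atf2 and Atf3 did not pass it either, with log2 differences of -0.37, -0.37, -0.12 and -0.18. The 5 AP-1 members under the filter included Fosb, which had deposited values of 0.64 to 0.80 RPKM in Ad-Cre and 0.89 to 1.16 RPKM with inhibitor.

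The bases before the Jun start are shown because c-Jun is known to act there. They are from RefSeq (GRCm38.p6, chr4:95052223-95052472, minus strand), 5′ to 3′, and the capitals mark the 8 letters TGACATCA, a variant of the AP-1 site at which Jun and ATF proteins pair.
Jun: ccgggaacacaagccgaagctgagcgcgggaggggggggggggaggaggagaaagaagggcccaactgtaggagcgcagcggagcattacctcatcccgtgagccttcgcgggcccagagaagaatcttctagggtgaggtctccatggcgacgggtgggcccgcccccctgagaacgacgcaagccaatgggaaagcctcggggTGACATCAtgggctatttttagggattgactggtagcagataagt
This word, searched on both strands from 250 bases before to 50 after each start, was in 3.62% of all 32851 promoters, in 1.73% of the 11484 promoters of genes tested, in 13 of 237 promoters of genes that fell (5.49%) and in 5 of 421 of genes that rose (1.19%). The canonical AP-1 word TGANTCA was in 6.75% of the promoters of genes that fell and in 6.65% of those that rose, against 7.81% of all promoters and 4.94% of those of genes tested. A match is a word in the sequence and does not show binding.

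Dusp8, Dusp16 and Dusp1, encoding MAP kinase phosphatases, fell with the inhibitor. Of 9 DUSPs above the filter 3 fell and none rose, while the median of the list was -0.03, close to that of all genes. Dusp8, a phosphatase of JNK and p38 (chr7:142079490-142095843, minus strand), had 18.9, 16.3, 14.7 and 15.2 RPKM in Ad-Cre and 7.84, 7.11, 3.96 and 6.22 RPKM with inhibitor (log2 difference -1.27, SE 0.11, limma's adjusted p = 0.0141). Each library with inhibitor was below every Ad-Cre library. Dusp16, which encodes the JNK phosphatase MKP-7 (chr6:134715468-134792625, minus strand), went from 4.02, 4.09, 5.16 and 3.87 to 1.73, 1.54, 2.01 and 1.85 RPKM (log2 difference -0.92, SE 0.08, limma's adjusted p = 0.0141), also without overlap. Dusp1, encoding MKP-1, had 6.55, 7.13, 17.2 and 8.10 RPKM in Ad-Cre and 4.60, 4.47, 8.83 and 6.46 RPKM with inhibitor. It fell in each preparation (log2 difference -0.54, SE 0.11, limma's adjusted p = 0.0446), while the groups overlapped, M2 standing above the others in both, and with quantile normalization its call was lost (adjusted p = 0.0704, limma). The ERK phosphatase gene Dusp6 was higher in 4 of 4 preparations without passing (log2 difference 0.35, SE 0.09, limma's adjusted p = 0.0741), and Dusp4, Dusp5, Dusp7, Dusp10 and Dusp14 had log2 differences between -0.20 and 0.02. The CRE word TGACGTCA was found in the promoters of Dusp8 (2 matches) and Dusp1 (1 match), and in 1.79% of all promoters, 3.18% of those of genes tested, 4.75% of those of genes that rose and 2.95% of those of genes that fell.

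**Figure D1:**
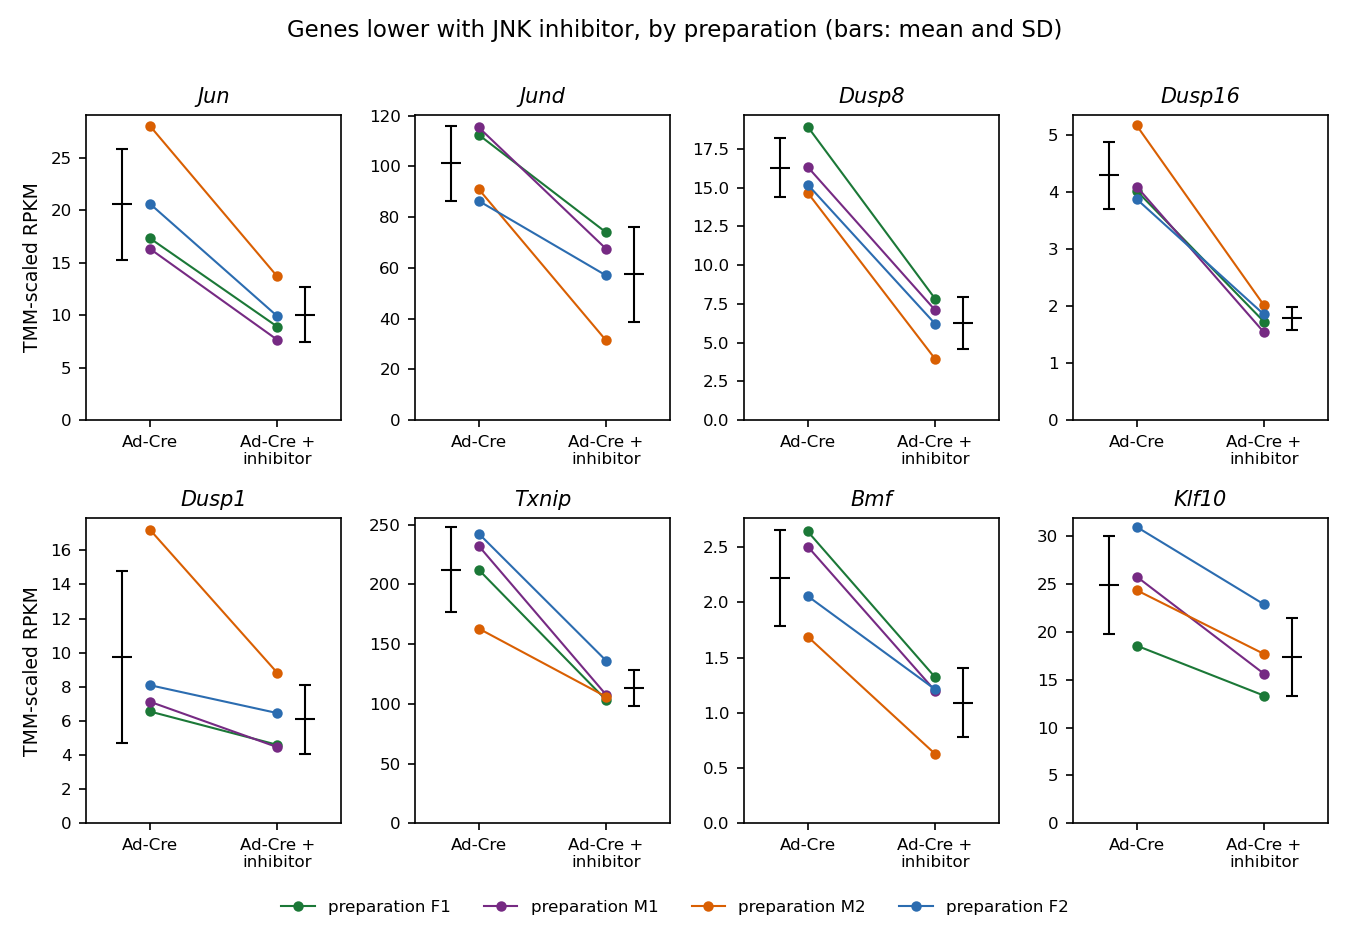
TMM-scaled RPKM (vertical axis, from 0) of 8 genes that fell, in the Ad-Cre and the Ad-Cre + JNK inhibitor library of each preparation (points joined by a line, 1 colour per preparation); black bars are the mean and SD of 4 libraries. Every line runs downward, and Jun, Jund, Dusp8, Dusp16, Txnip and Bmf have groups that do not overlap.

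Few genes of the kinase module were called. Of 20 genes for JNKs, their upstream kinases and scaffolds, 19 were above the filter, 1 rose and none fell, with a median of -0.10. Over all genes tested 3.96% rose and 2.04% fell, and 1 call among 19 is close to these shares. The JNK genes Mapk8, Mapk9 and Mapk10 had log2 differences of -0.01, 0.05 and -0.30, and the JNK kinase genes Map2k4 and Map2k7 had -0.12 and -0.10, none past the test. The gene that rose was Mapk8ip3, which encodes the scaffold JIP3: it had 6.39, 5.02, 6.44 and 7.12 RPKM in Ad-Cre and 12.4, 9.66, 8.55 and 10.3 RPKM with inhibitor (log2 difference 0.63, SE 0.11, limma's adjusted p = 0.0322), without overlap.

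Among immediate-early genes outside AP-1, 2 of 16 rose and 1 fell. The orphan nuclear receptor gene Nr4a1 (chr15:101254269-101274795, plus strand) had 20.7, 11.8, 6.59 and 4.92 RPKM in Ad-Cre and 35.3, 23, 14.0 and 14.7 RPKM with inhibitor (log2 difference 1.01, SE 0.12, limma's adjusted p = 0.018). Each preparation rose, while the groups overlapped, the Ad-Cre library of F1 being above the inhibitor libraries of M2 and F2. Its relative Nr4a2 rose from 4.93, 4.97, 4.50 and 3.74 to 9.32, 6.59, 9.98 and 6.38 RPKM without overlap (log2 difference 0.70, SE 0.12, limma's adjusted p = 0.031). Klf10, a transcription factor gene first described as induced by TGF-beta, fell from 18.6, 25.8, 24.4 and 31.0 to 13.4, 15.6, 17.7 and 22.9 RPKM (log2 difference -0.50, SE 0.08, limma's adjusted p = 0.0275). Egr1, Ier2, Myc, Klf4 and Btg2 had differences of 0.04, -0.08, -0.11, 0.06 and -0.16 and did not pass.

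A set of genes was measured by the study as c-Jun targets, in the liver of diabetic Akita mice or in human islet cells. It treats Nfatc2, Pvr, Txnip, Fosb and Wee1 as raised by c-Jun, and Map1lc3b and Lgals3 as suppressed by it. Of these 7 genes, 6 were above the filter here, of which 1 fell, 1 rose and 4 did not pass. Txnip, whose product binds thioredoxin and is raised by glucose in beta cells (chr3:96557957-96561883, plus strand), had 212, 232, 163 and 243 RPKM in Ad-Cre and 103, 108, 106 and 136 RPKM with inhibitor (log2 difference -0.89, SE 0.10, limma's adjusted p = 0.018). Map1lc3b, the autophagosome protein LC3B, rose from 31.6, 23.7, 24.9 and 24.3 to 43.2, 37.9, 40.9 and 44.9 RPKM (log2 difference 0.66, SE 0.09, limma's adjusted p = 0.022), and was lost by a small margin with quantile normalization (adjusted p = 0.0517, limma). Neither gene had overlapping groups. Wee1 was lower in 4 of 4 preparations without overlap but did not pass (log2 difference -0.32, SE 0.08, limma's adjusted p = 0.0743), and Nfatc2, Pvr and Lgals3 had differences of -0.02, -0.13 and 0.07. With RPKM as deposited Wee1 did pass (log2 difference -0.43, limma's adjusted p = 0.0428).

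Some ER folding genes rose with the inhibitor. Of 14 ER chaperones 4 rose and none fell, with a median of 0.30, and of 13 disulfide isomerases and ER oxidases 2 rose and none fell (median 0.28). The medians depended on the scaling, at -0.03 and 0.07 with quantile normalization, under which none of these 27 genes passed. With RPKM as deposited they were 0.15 and 0.14, and 1 gene rose in each list, Calr and P4hb. Calr, encoding the lectin chaperone calreticulin (chr8:84841850-84846934, minus strand), had 841, 704, 687 and 883 RPKM in Ad-Cre and 1540.1, 1352, 1312 and 1384 RPKM with inhibitor, without overlap (log2 difference 0.85, SE 0.09, limma's adjusted p = 0.018). Quantile normalization lowered this difference to 0.33. Hsp90b1, which encodes GRP94, the ER form of HSP90, went from 1349.8, 1460.1, 1732 and 2324 to 2042, 2252, 2712 and 2863 RPKM (log2 difference 0.54, SE 0.10, limma's adjusted p = 0.0382), the difference being 0.06 after quantile normalization. It was higher in every preparation, while the ranges of the groups overlapped. Creld2 rose from 499, 499.8, 593 and 936 to 981, 979.9, 842 and 1283 RPKM (log2 difference 0.73, SE 0.12, limma's adjusted p = 0.0322), and the cochaperone gene Dnajc3 by a log2 difference of 0.46 (SE 0.08, limma's adjusted p = 0.0322). P4hb, the archetypal protein disulfide isomerase, had 992, 799.8, 627 and 829.5 RPKM in Ad-Cre and 1691, 1437, 1052 and 1326 RPKM with inhibitor (log2 difference 0.76, SE 0.08, limma's adjusted p = 0.018), and Pdia6 rose by 0.57. Of 17 ER-associated degradation genes tested 2 rose, the lectin gene Os9 (0.74, SE 0.08, limma's adjusted p = 0.018) and Selenos (0.45, SE 0.06, limma's adjusted p = 0.0262), and none fell. With quantile normalization none of the 17 passed.

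The bases before the starts of 3 of these chaperone genes are shown because they share the ER stress response element, searched on both strands as CCAAT and CCACG with 9 bases of any kind between them and set in capitals. They are from RefSeq (GRCm38.p6), 5′ to 3′ along each gene, for Calr at chr8:84846935-84847181, minus strand, for Creld2 at chr15:88819396-88819645, plus strand and for Hsp90b1 at chr10:86705510-86705694, minus strand, and stop where the annotated transcript begins.
Calr: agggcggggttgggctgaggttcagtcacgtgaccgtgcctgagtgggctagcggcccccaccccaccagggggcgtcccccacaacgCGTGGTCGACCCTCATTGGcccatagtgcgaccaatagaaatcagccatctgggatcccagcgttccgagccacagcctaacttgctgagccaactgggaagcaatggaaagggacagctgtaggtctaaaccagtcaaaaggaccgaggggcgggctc
Creld2: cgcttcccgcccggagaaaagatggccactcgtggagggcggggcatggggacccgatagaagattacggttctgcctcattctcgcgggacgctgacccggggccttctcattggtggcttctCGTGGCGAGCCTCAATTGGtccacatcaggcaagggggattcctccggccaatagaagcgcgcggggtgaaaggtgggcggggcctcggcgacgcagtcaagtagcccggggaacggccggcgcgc
Hsp90b1: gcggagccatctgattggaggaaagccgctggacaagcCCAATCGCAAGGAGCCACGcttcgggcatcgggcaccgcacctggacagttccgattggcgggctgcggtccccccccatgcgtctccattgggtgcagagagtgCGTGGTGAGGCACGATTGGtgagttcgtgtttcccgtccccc
The element was in 6 of the 11 promoters matched to ER chaperones (54.5%), those of Hspa5, Hsp90b1, Calr, Canx, Dnajc3 and Creld2, against 0.119% of all promoters. The 4 chaperone genes that rose are all among these 6, and Hspa5 and Canx, which also hold it, did not pass the test (Canx log2 difference 0.15, SE 0.07, limma's adjusted p = 0.235). All 4 lost their calls with quantile normalization. On the other lists the element was in the promoters of Pdia6, which rose, and of Derl3 and Syvn1, which did not pass. Of the promoters of all genes that rose 6 of 421 held the element (1.43%), and of those of genes that fell 0 of 237. The 6 include those of the 4 chaperone genes and of Pdia6. Any link between the element and the rises was not tested.

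Markers of the PERK arm did not follow one direction. Of 28 ATF4 and CHOP target genes 3 rose and none fell, while the median was -0.13. Ddit3, which encodes CHOP, had 37.3, 34.7, 74.6 and 90.8 RPKM in Ad-Cre and 50.8, 51.6, 98.4 and 124 RPKM with inhibitor (log2 difference 0.46, SE 0.07, limma's adjusted p = 0.0267). The preparations differed by more than the treatment, with M2 and F2 above F1 and M1 in both groups, and each rose by a similar step (0.44, 0.56, 0.39 and 0.45 on the log2 scale). The call for Ddit3 was lost with quantile normalization (0.25) and with RPKM as deposited (0.32). The stress regulator gene Nupr1 rose from 17.1, 15.7, 23.1 and 29.7 to 28.9, 31.8, 43.2 and 44.0 RPKM (log2 difference 0.78, SE 0.09, limma's adjusted p = 0.018), and the serine synthesis gene Psat1 by 0.36 (limma's adjusted p = 0.0405). In another list, of 11 UPR sensor genes, 1 rose: Ppp1r15a, encoding the phosphatase subunit GADD34 (log2 difference 0.42, SE 0.06, limma's adjusted p = 0.0275). The calls for Psat1 and Ppp1r15a were also lost with quantile normalization and with RPKM as deposited, while Nupr1 kept its call. Atf4, Atf5, Chac1, Sesn2 and Slc7a5 were on the negative side without passing, with log2 differences of -0.20, -0.29, -0.42, -0.31 and -0.26. With RPKM as deposited the list of ATF4 and CHOP targets had 1 rise and 2 falls. Chac1 passed there (log2 difference -0.56, limma's adjusted p = 0.0452). The sensor genes Ern1 and Eif2ak3, encoding IRE1 and PERK, were level at -0.06 and 0.00, and Atf6 was lower in 4 of 4 preparations without passing (log2 difference -0.28, SE 0.08, limma's adjusted p = 0.0992). Atf6 did pass with RPKM as deposited (log2 difference -0.42, limma's adjusted p = 0.0373).

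Genes of the p53 response showed no common shift. Of 31 p53 targets tested 1 rose, the decoy receptor gene Tnfrsf23 (log2 difference 0.50, SE 0.08, limma's adjusted p = 0.0322), and none fell, with a median of 0.02 and pair medians of 0.08, 0.04, 0.01 and 0.03. Trp53, which encodes p53 itself, differed by -0.11 and its inhibitor gene Mdm2 by 0.13. Cdkn1a, encoding the cell cycle inhibitor p21, had 213, 168, 221 and 217 RPKM in Ad-Cre and 263, 263, 235 and 279 RPKM with inhibitor. The groups did not overlap and 4 of 4 preparations were higher, but the test was not passed (log2 difference 0.35, SE 0.10, limma's adjusted p = 0.106) unless M2 was left out (adjusted p = 0.0116, limma). Leaving out M2 let 2404 genes pass, among them Fos, Dusp6, Wee1, Atf6 and Mapk10, which had not passed with all 4 preparations. The study's qPCR panel for p53 was Atf3, Bak1, Trib3, Phlda3, Sdc1 and Ier5, chosen for such cultures and so no independent evidence of a direction. All 6 of these genes had a negative difference and none passed, between -0.34 and -0.12. Their median difference was 0.05, 0.00, -1.10 and -0.21 in F1, M1, M2 and F2, so M2 was far below the others. Phlda3, for example, had 14.3, 17.6, 48.5 and 26.9 RPKM in Ad-Cre and 15.9, 16.9, 18.7 and 28.7 RPKM with inhibitor, and Sdc1 had 2.55, 2.70, 7.80 and 5.18 and 3.91, 3.54, 2.45 and 3.55 RPKM. Stellate cell and fibroblast markers also moved most in M2, where their sum was 2515 RPKM in Ad-Cre and 1361 RPKM with inhibitor, and their part in these values was not tested. In bulk RNA, here and below, fewer cells of a type and less RNA per cell cannot be told apart.

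Of 13 BCL2 family genes above the filter 1 fell and none rose (median -0.09). Bmf, a BH3-only gene whose product promotes apoptosis (chr2:118528757-118549687, minus strand), had 2.64, 2.50, 1.69 and 2.06 RPKM in Ad-Cre and 1.32, 1.2, 0.629 and 1.21 RPKM with inhibitor, without overlap (log2 difference -0.63, SE 0.08, limma's adjusted p = 0.022). The effector gene Bax was higher in 4 of 4 preparations, at 40.0, 34.4, 58.3 and 53.3 and 52.6, 52.9, 60.2 and 78.3 RPKM, and its antagonist Bcl2l1, encoding BCL-XL, was lower in 4 of 4, at 15.8, 14.9, 15.3 and 14.2 and 14.6, 12.9, 10.5 and 11.8 RPKM. Neither passed the test (log2 difference 0.40, SE 0.11, limma's adjusted p = 0.0869 for Bax, and log2 difference -0.26, SE 0.09, limma's adjusted p = 0.13 for Bcl2l1), although Bax did without M2 (adjusted p = 0.00404, limma). Bak1, Mcl1, Bbc3 and Pmaip1 had differences of -0.12, 0.02, -0.32 and -0.16, and Bcl2 was under the filter, at 0.46 to 2.03 RPKM in Ad-Cre and 0.42 to 1.19 RPKM with inhibitor as deposited. Of 19 caspase and death machinery genes, Cycs rose (log2 difference 0.56, SE 0.08, limma's adjusted p = 0.0269), which encodes cytochrome c, also a carrier of the respiratory chain.

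Several genes of hormone processing and secretory granules rose with the inhibitor, and the insulin genes did not. Of 18 genes on this list 6 rose and none fell, with a median of 0.41, which was 0.03 with quantile normalization, where 2 rose. Pcsk1, the prohormone convertase that cleaves proinsulin (chr13:75089826-75134861, plus strand), had 117, 107, 50 and 62.0 RPKM in Ad-Cre and 207, 211, 93.9 and 114 RPKM with inhibitor (log2 difference 0.89, SE 0.07, limma's adjusted p = 0.0105). Preparations F1 and M1 lay above M2 and F2 in both groups, and the difference was 0.82, 0.97, 0.90 and 0.87 within them. The granule peptide gene Vgf rose from 134, 64.8, 57.9 and 50.3 to 362, 182, 121 and 198 RPKM (log2 difference 1.48, SE 0.15, limma's adjusted p = 0.0178). Scg3 rose by 1.0, Scg2 by 0.88, Chga by 0.73 and Ptprn by 0.52 (limma's adjusted p = 0.033, 0.046, 0.0406 and 0.037), and these 4 calls were lost with quantile normalization. Ins1 had 30090, 27794, 11592 and 16567 RPKM in Ad-Cre and 20445, 19969, 9457 and 15081 RPKM with inhibitor and was lower in 4 of 4 preparations without passing (log2 difference -0.37, SE 0.13, limma's adjusted p = 0.154). Ins2 was lower in F1 and M1 and higher in M2 and F2 (-0.24, -0.06, 0.56 and 0.41), with an overall difference of 0.17; the insulin genes are near-identical, so reads may be split between them. None of 18 beta cell transcription factor genes tested passed in either direction: Pdx1 differed by -0.14, Mafa by -0.24 and Nkx6-1 by -0.27. The glucose-sensing and KATP list had 1 fall among 14 genes, Kcnj11, the pore subunit of the channel (log2 difference -0.32, SE 0.06, limma's adjusted p = 0.0408).

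Markers of the other endocrine cells were higher as well. Of 10 alpha, delta and PP cell markers tested 3 rose and all 10 had a positive difference, with a median of 0.50. Ttr, encoding transthyretin, which alpha cells express strongly, had 795, 424, 183 and 264 RPKM in Ad-Cre and 1965, 1230.3, 729.5 and 937 RPKM with inhibitor (log2 difference 1.66, SE 0.13, limma's adjusted p = 0.0105). The delta cell hormone gene Sst went from 2475, 1947, 2166 and 1000 to 4074, 2911, 6981 and 2393 RPKM, most steeply in M2 (log2 difference 1.06, SE 0.20, limma's adjusted p = 0.0382). Its call was lost after quantile normalization, at 0.41. The alpha cell transcription factor gene Irx1 rose by 0.56 (limma's adjusted p = 0.0435), and Gcg, for glucagon, differed by 0.53 (SE 0.22) without passing. Irx1 lost its call with quantile normalization and with RPKM as deposited (adjusted p = 0.0697 and 0.0539, limma), while Ttr kept its call with both. The sum of the 11 markers listed, dominated by Gcg, was 30690, 18840, 18720 and 14760 RPKM in Ad-Cre and 36900, 21540, 41020 and 24720 RPKM with inhibitor, higher in each preparation.

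**Figure D2:**
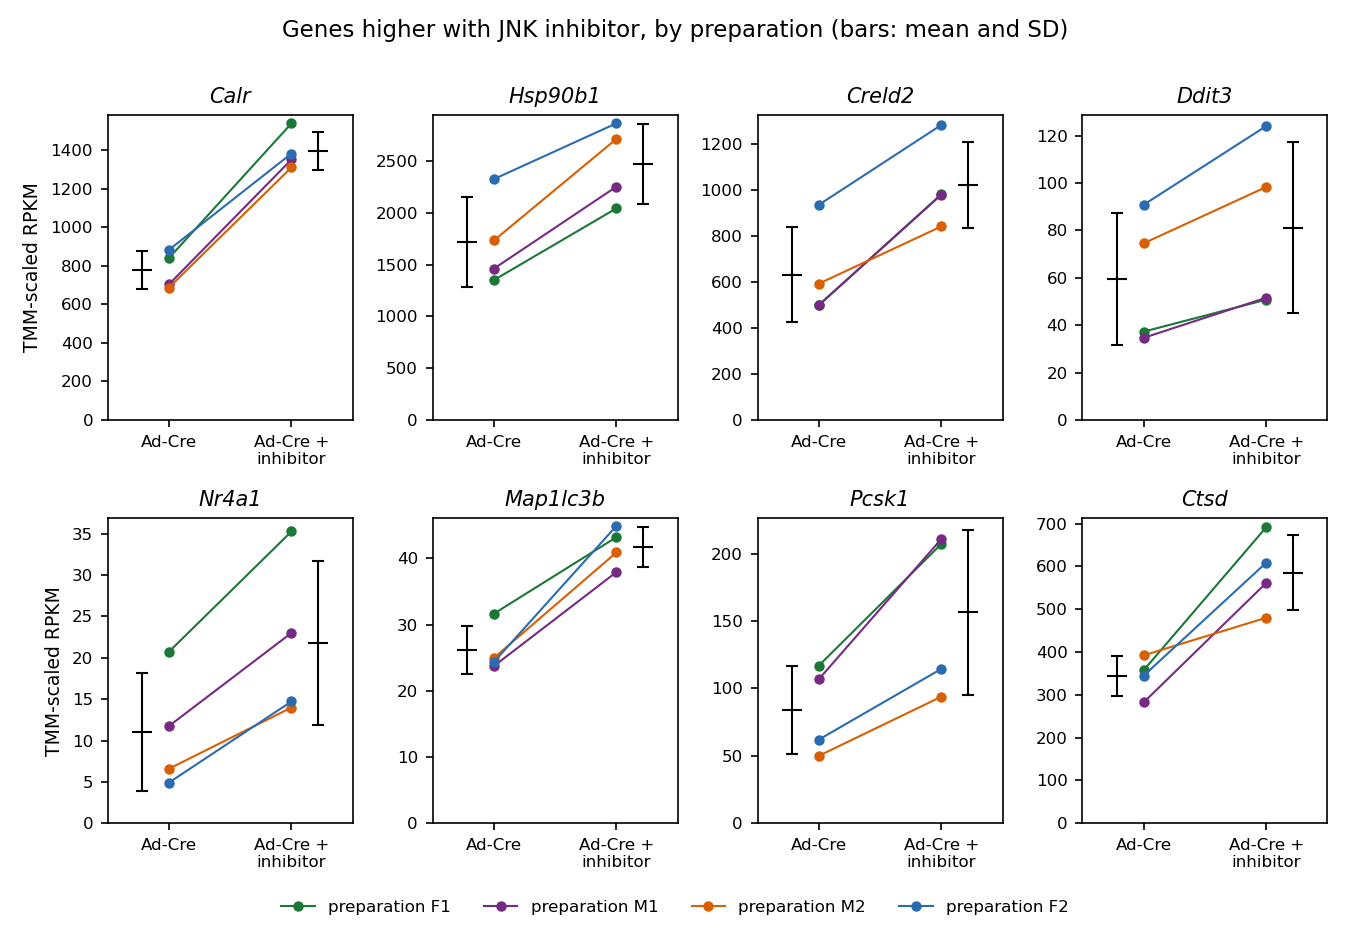
TMM-scaled RPKM (vertical axis, from 0) of 8 genes that rose, in the Ad-Cre and the Ad-Cre + JNK inhibitor library of each preparation (points joined by a line, 1 colour per preparation); black bars are the mean and SD of 4 libraries. Every line runs upward; Calr, Map1lc3b and Ctsd have groups that do not overlap, whereas those of Ddit3, Nr4a1, Pcsk1, Hsp90b1 and Creld2 overlap.

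Lysosomal genes were higher with the inhibitor. Of 29 tested 12 rose and none fell, 26 had a positive difference and the median was 0.46, with 0.30 and 4 rises under quantile normalization. With RPKM as deposited the list had 4 rises and 1 fall, and the median was 0.32. The aspartic protease gene Ctsd (chr7:142375911-142388038, minus strand) had 358, 282, 392 and 345 RPKM in Ad-Cre and 692, 561, 480.2 and 609 RPKM with inhibitor (log2 difference 0.76, SE 0.13, limma's adjusted p = 0.033). Cathepsin Z (Ctsz) went from 68.2, 57.0, 94.3 and 67.9 to 159, 112, 137 and 117 RPKM (log2 difference 0.87, SE 0.12, limma's adjusted p = 0.0241), and the membrane glycoprotein gene Lamp1 from 446, 384, 337 and 335 to 686, 579, 693 and 537 RPKM (log2 difference 0.73, SE 0.10, limma's adjusted p = 0.026). None of these 3 had overlapping groups. Cathepsin B (Ctsb) rose from 120.3 ± 12.8 to 174 ± 25.3 RPKM (SD, n = 4 each, log2 difference 0.52, SE 0.10, limma's adjusted p = 0.0369). The sialidase gene Neu1 rose by 0.65, the cholesterol carrier gene Npc2 by 0.62, the alpha-galactosidase gene Gla by 0.52 and the channel gene Mcoln1 by 0.41 (limma's adjusted p = 0.018, 0.031, 0.0309 and 0.0411). The calls for Ctsd, Ctsb and Npc2 were lost both with quantile normalization and with RPKM as deposited. Lamp1 lost its call with quantile normalization, and Gla and Mcoln1 lost theirs with RPKM as deposited, while Ctsz and Neu1 kept theirs. The exceptions to the common direction were Mitf, Atp6v1a and Atp6v1h, at -0.12, -0.16 and -0.15, none of which passed, and another transcription factor gene of the list, Tfe3, was level at 0.01. The word TCACGTGA, the core of the CLEAR element read by TFEB and TFE3, was in 7 of 29 promoters of lysosomal genes (24.1%), against 0.974% of all promoters and 1.95% of those of tested genes. It was found in 3 genes that rose (Ctsd, Gla and Mcoln1) and in 4 that did not pass (Ctsa, Atp6v0d1, Atp6v1a and Cln3). Macrophages are rich in lysosomes, and the sum of 12 macrophage markers was 104, 119.8, 246 and 221 RPKM in Ad-Cre and 274, 226, 372 and 279.7 RPKM with inhibitor, higher in each preparation; its part in the lysosomal values was not tested. That sum was led by Lyz2, and over the 11 markers tested 1 rose and none fell, with a median of -0.01. Their pair medians were 0.75, 0.40, -0.38 and -0.475 in F1, M1, M2 and F2, so most markers did not share the direction of the sum in M2 and F2.

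Autophagy genes had 4 rises and no fall among 19, with a median of 0.01. Besides Map1lc3b these were the receptor gene Sqstm1, which encodes p62 (576 ± 50.1 to 856 ± 149.6 RPKM, SD, n = 4 each, log2 difference 0.56, SE 0.10, limma's adjusted p = 0.037), Gabarapl2 (0.49) and Wipi1 (0.55). The call for Sqstm1 was lost with quantile normalization (0.12).

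Genes for protein synthesis and respiration had small positive differences. All 34 cytosolic ribosomal protein genes had a positive difference and 12 rose, with a median of 0.36 (0.18 and no call with quantile normalization). Rpl14 went from 97.6 ± 14.9 to 167 ± 35.9 RPKM (SD, n = 4 each, log2 difference 0.76, SE 0.13, limma's adjusted p = 0.032). Processed copies of these genes can share their reads, so single members are uncertain. Of 31 respiratory chain genes 6 rose and none fell (median 0.23), led by Ndufa1 (log2 difference 0.63, SE 0.11, limma's adjusted p = 0.033). With quantile normalization 0 of these passed (median 0.09), and with RPKM as deposited 1 did. Of 26 MYC and ribosome biogenesis genes 3 rose, Nop56, Nolc1 and Odc1, at 0.60, 0.47 and 0.62. Sterol synthesis had 4 rises among 21 genes (Lss, Cyp51, Sc5d and Msmo1, between 0.38 and 0.52), but 1 rise with quantile normalization, and no rise and 1 fall with RPKM as deposited.

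Antioxidant and heat shock genes split by member. Of 16 NRF2 targets and metallothioneins 3 rose, and Hmox1, encoding heme oxygenase, moved most, from 87.6, 70.9, 122 and 113 to 159.7, 152, 240.2 and 189 RPKM without overlap (log2 difference 0.92, SE 0.08, limma's adjusted p = 0.0157). G6pdx and Prdx1, for enzymes that make NADPH and reduce peroxides, rose by 0.37 and 0.61. The median of that list was 0.08 and turned negative with RPKM as deposited (-0.06). Of 15 cytosolic heat shock genes 3 rose, Hsp90ab1, Bag3 and Hspe1 at 0.51, 0.43 and 0.58, and 1 fell: Hspb1, encoding HSP27, had 13.2, 15.2, 44.5 and 18.1 RPKM in Ad-Cre and 7.18, 9.70, 19.7 and 12.6 RPKM with inhibitor (log2 difference -0.76, SE 0.12, limma's adjusted p = 0.0279). With quantile normalization the list had no rise and 1 fall. Glucose response genes under ChREBP had 3 falls among 14, Txnip, the pyruvate kinase gene Pklr (-0.42, limma's adjusted p = 0.0299) and the ATP citrate lyase gene Acly (-0.39, limma's adjusted p = 0.0407). Of 13 interferon-stimulated genes 2 fell, Ifit3 (-0.74) and Ddx58 (-0.39), and none rose, with a median of -0.21. Both calls were lost with quantile normalization (adjusted p = 0.0829 and 0.0869, limma), while RPKM as deposited gave 3 falls. Ifit3 did not reach the filter without M2. Among G1 regulators the cyclin E gene Ccne1 rose from 5.29 ± 1.43 to 10.6 ± 2.30 RPKM and the cyclin D2 gene Ccnd2 fell from 96.4 ± 17.3 to 71.2 ± 12.8 RPKM (SD, n = 4 each; 0.89 and -0.43, limma's adjusted p = 0.0267 and 0.0406).

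Other lists held few calls, to be read beside the 3.96% of all genes that rose and the 2.04% that fell. The translocon and N-glycosylation list had 2 rises among 21 genes, Ssr4 (0.73) and Dad1 (0.65), the vesicle coat list (COPII and COPI) 2 among 22, Tmed2 (0.53) and Copg1 (0.31), and the proteasome 2 among 31, Psmc4 (0.45) and Psmd7 (0.46). In glycolysis Pgam1 rose (0.52) and Pfkfb3 fell (-0.38) among 18 genes, and in exocytosis Syt11 fell (-0.62) among 16. Among 13 adhesion and axon guidance genes Nrcam rose (0.67), while L1cam (-0.73) and Cntn1 (-0.44) fell, and among 13 cytoskeleton genes Stmn1 rose (0.55). The hormone genes Gast (0.79) and Cck (1.21) rose among 12 dedifferentiation and disallowed genes, whose median was -0.13. No gene passed in the lists of tRNA synthetases (17 tested, median 0.12), proliferation (21, 0.22), MHC class I (10, 0.07) or chemokines and NF-kB targets (12, -0.13). The positive medians of the translocon (0.21), vesicle coat (0.14), tRNA synthetase and glycolysis (0.04) lists turned negative with quantile normalization, to -0.03, -0.02, -0.04 and -0.05.

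**Figure D3:**
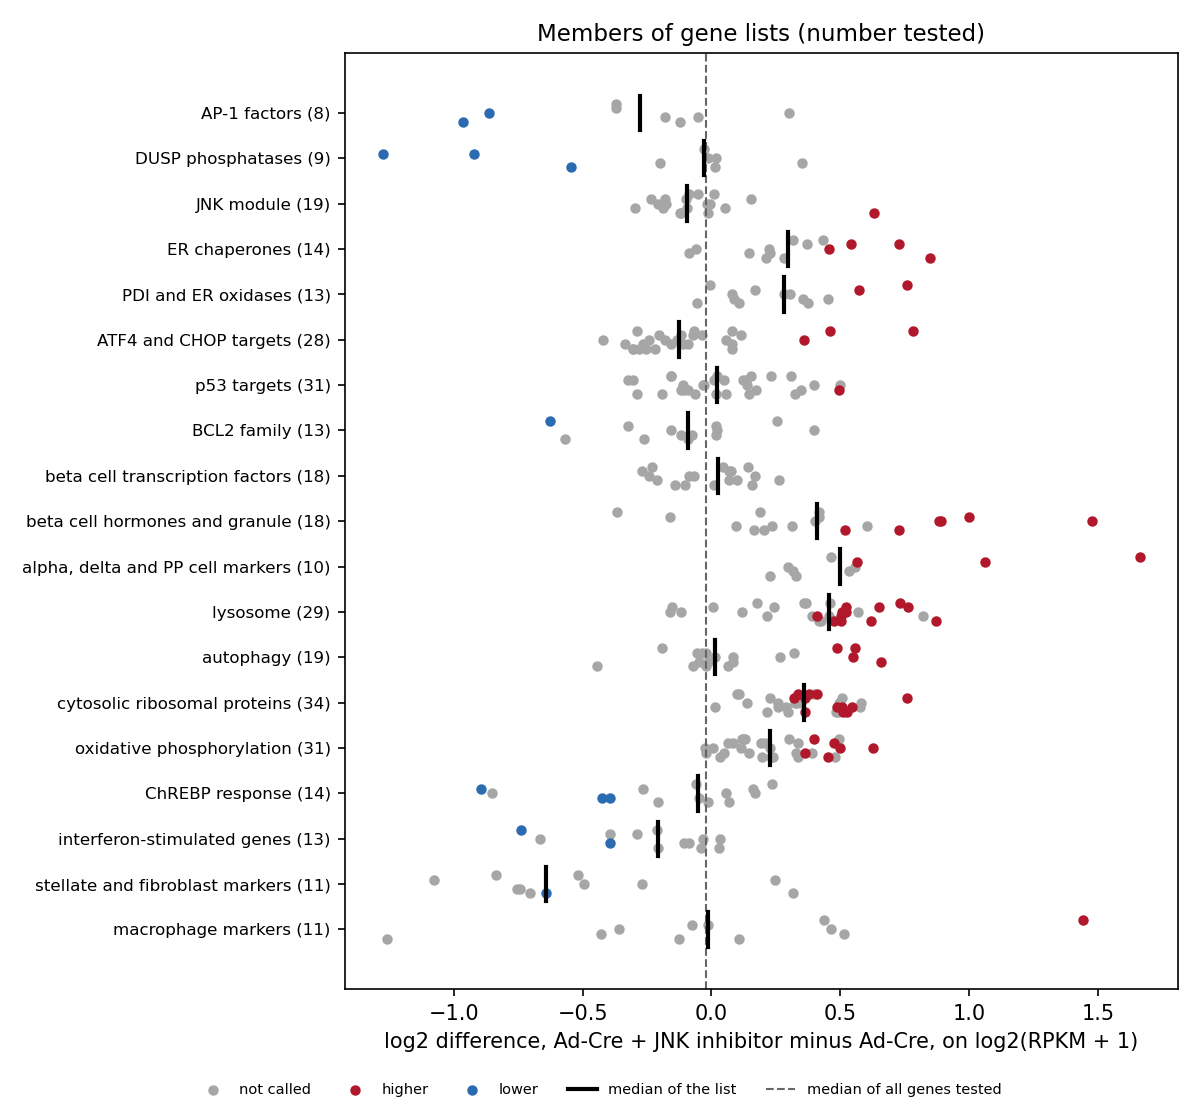
Log2 difference of each tested member (points, horizontal axis) of 19 gene lists, Ad-Cre + JNK inhibitor minus Ad-Cre, coloured by whether the gene passed the adjusted test; the black bar is the median of the list and the dashed line that of all genes tested (-0.02). Rises gather in the lysosome, ribosomal protein and granule lists, and the falls in the AP-1 and DUSP lists lie beyond the other members of these lists.

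The 12 largest rises were led by Nptx2, which encodes the secreted neuronal pentraxin 2 (chr5:144545902-144557478, plus strand). It had 17.9, 5.77, 16.5 and 12.7 RPKM in Ad-Cre and 137, 32.0, 68.0 and 91.8 RPKM with inhibitor (log2 difference 2.47, SE 0.16, limma's adjusted p = 0.0105). Each library with inhibitor was above all of those without, F1 being highest and M1 lowest in both groups. Mucl2 was close to the detection limit in Ad-Cre, at 0.111, 0.457, 0.381 and 0.310 RPKM, and had 8.04, 6.90, 5.31 and 2.47 RPKM with inhibitor (log2 difference 2.27, SE 0.24, limma's adjusted p = 0.018). It entered the test only through the inhibitor libraries, where it is high, and was not tested in Ad-LacZ or without M2. Dapl1 rose by 1.76, the matrix protein gene Mgp by 1.7, the guanylin gene Guca2a by 1.44 and Cgref1 by 1.42, next to Ttr and Vgf described above. Guca2a, at 0.95, 0.28, 1.22 and 0.72 RPKM in Ad-Cre, also entered the test mainly through the inhibitor libraries. Lyz2, the lysozyme of myeloid cells, went from 23, 37.8, 103 and 82.6 to 111, 96.1, 236 and 171 RPKM (log2 difference 1.44, SE 0.20, limma's adjusted p = 0.0237). The 3 others are a pseudogene (Gm6023, 1.68), a small nucleolar RNA gene (Rnu3b4, 1.61) and an antisense gene (1700122H20Rik, 1.59), whose values are uncertain because reads of near-identical copies or of the opposite strand may be counted there.

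Tnc, for the matrix protein tenascin C, was among the 12 largest falls (chr4:63959785-64047015, minus strand). It had 11.2, 31.7, 119 and 53.7 RPKM in Ad-Cre and 5.10, 10.3, 25.2 and 18.0 RPKM with inhibitor (log2 difference -1.56, SE 0.18, limma's adjusted p = 0.018). The intermediate filament gene Des had 5.46, 7.94, 49.4 and 22.5 and 3.46, 3.29, 12.1 and 9.11 RPKM (log2 difference -1.19, SE 0.21, limma's adjusted p = 0.0347), and the smooth muscle actin gene Actg2 had 6.56, 32.4, 223 and 82.8 and 3.26, 14.8, 79.6 and 45.6 RPKM (log2 difference -1.06, SE 0.12, limma's adjusted p = 0.018). In all 3 the preparations spanned a wide range, with M2 highest and F1 lowest in Ad-Cre, and each preparation fell. Fhl1 fell by 1.02 on the log2 scale. The other falls among the 12 were Endou (-1.47), the sugar transporter gene Slc5a10 (-1.21), the water channel gene Aqp4 (-1.15), the cytokine receptor gene Cntfr (-1.15), the glutamate transporter gene Slc1a6 (-1.04), Scarf2 (-0.98), and Dusp8 and Jun. Endou had 1.40, 1.41, 6.81 and 8.00 RPKM in Ad-Cre and 0.28, 0.17, 0.82 and 1.58 RPKM with inhibitor. It thus entered the test mainly through the Ad-Cre libraries, where it is higher. Cntfr had 12.0, 15.1, 10.1 and 14.7 RPKM in Ad-Cre and 5.86, 6.34, 3.34 and 5.98 RPKM with inhibitor, without overlap (log2 difference -1.15, SE 0.09, limma's adjusted p = 0.0105).

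Stellate cell and fibroblast markers themselves were lower in most preparations. Of 14 listed 11 were above the filter, 1 fell (Acta2) and 9 had a negative difference, with a median of -0.64 and pair medians of 0.11, -0.38, -1.41 and -0.59. Their sum was 229, 362, 2515 and 1012 RPKM in Ad-Cre and 199.9, 242, 1361 and 721 RPKM with inhibitor. Acta2, encoding smooth muscle actin, had 156, 242, 1038 and 481 RPKM and 108, 140.3, 656 and 320.2 RPKM (log2 difference -0.64, SE 0.08, limma's adjusted p = 0.0206). Col1a1, a collagen gene, varied widely between preparations and did not pass, with 11.9, 17.5, 305 and 87.0 RPKM in Ad-Cre and 12.5, 11.6, 81.8 and 55.2 RPKM with inhibitor (log2 difference -0.75, SE 0.29, limma's adjusted p = 0.174). Of 6 duct markers tested 2 rose, Krt18 and Prom1 (0.57 and 0.78), and of 8 endothelial markers 1 rose, Plvap (0.78). The part of such cells in the other lists was not tested.

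**Figure D4:**
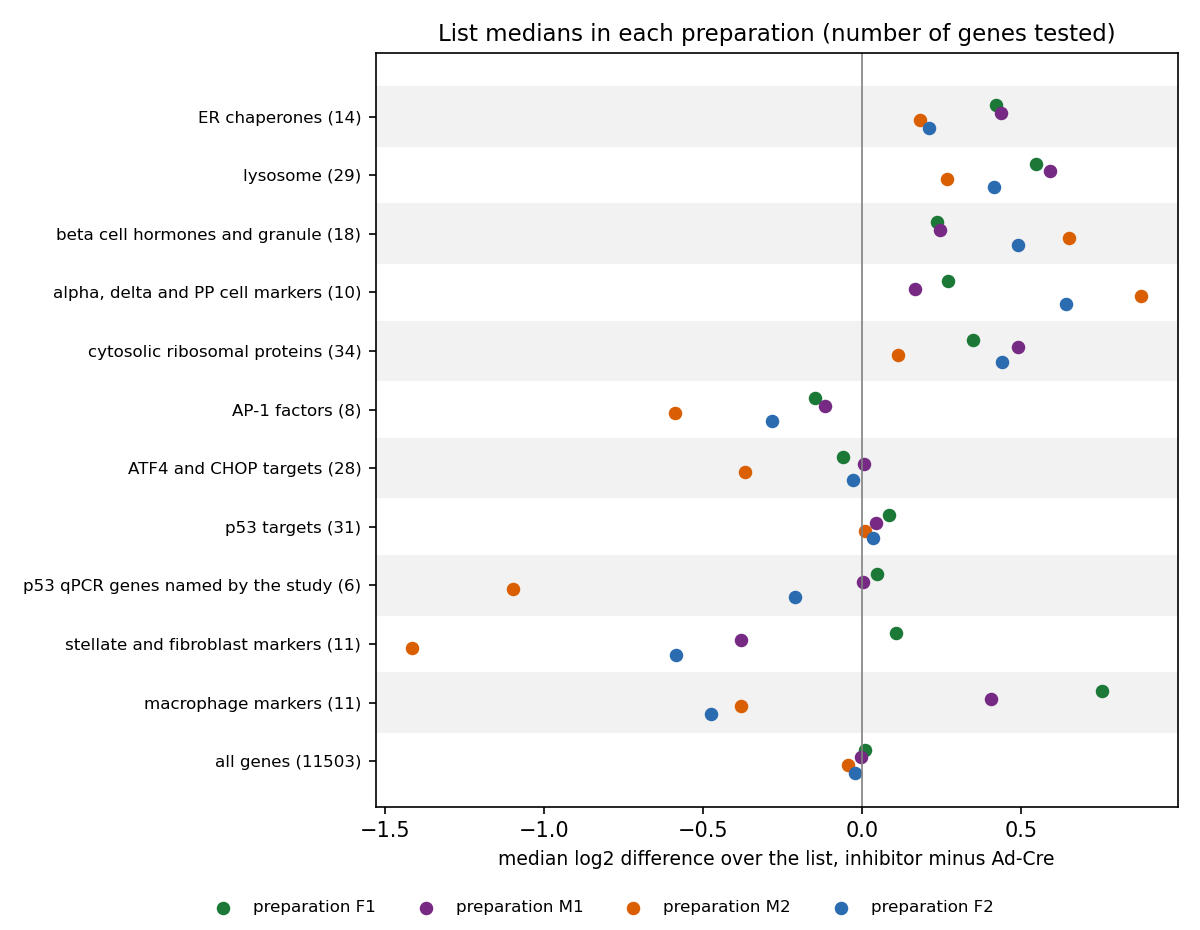
Median log2 difference (horizontal axis) of the tested members of 11 gene lists and of all genes, within each preparation (1 colour each). The ER chaperone, lysosome, granule, other endocrine and ribosomal protein medians are above 0 in all 4 preparations and the AP-1 median below 0, whereas the stellate cell, macrophage and p53 qPCR lists spread widely, with M2 lowest in the p53 qPCR and stellate cell lists.

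The same inhibitor was given to Ad-LacZ cells of the same preparations, in libraries that the Ad-Cre comparison does not share. There limma called 42 of 11657 genes (0.36%), 32 higher (0.275%) and 10 lower (0.0858%), and 8.24% passed the unadjusted p and the fold, against 18.4% in Ad-Cre. Without F1 204 genes were called in Ad-LacZ, without F2 22, and without M1 or M2 none (724 and 650 at an unadjusted p under 0.05). Of the 673 genes called in Ad-Cre that were also tested in Ad-LacZ, 18 were called there. Jun, Dusp8, Dusp16 and Txnip fell under both viruses. Jun differed by -1.06 in Ad-LacZ (SE 0.09, limma's adjusted p = 0.0365), Dusp8 by -1.39 (SE 0.14, limma's adjusted p = 0.0423), Dusp16 by -0.94 and Txnip by -1.03 (limma's adjusted p = 0.037 and 0.035). These values lie beside -0.97, -1.27, -0.92 and -0.89 in Ad-Cre, and the interaction estimates, Ad-Cre response minus Ad-LacZ response, were 0.11, 0.11, 0.02 and 0.15 with SE of 0.13, 0.26, 0.11 and 0.27. The rises of Nptx2, Pcsk1 and Ctsz passed under both viruses too, at 1.72, 0.84 and 0.73 in Ad-LacZ. For Nrcam, a neuronal adhesion gene, both passed, at 0.67 in Ad-Cre and 1.55 in Ad-LacZ.

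The interaction, tested over all 16 libraries and 12274 genes, gave no gene at an adjusted p under 0.05 (smallest adjusted p = 0.0687, limma) and 1433 genes (11.7%) at an unadjusted p under 0.05, so none of the following is shown to differ between the viruses after correction. Nrcam was among the smallest p-values on the negative side (-0.86, SE 0.15, limma's adjusted p = 0.0687), and Mucl2 had the smallest of all (2.27, SE 0.32, limma's adjusted p = 0.0687). Mucl2 entered this test only through the Ad-Cre + JNK inhibitor libraries, being under 1 RPKM in all others. ER folding genes had lower estimates in Ad-LacZ: Calr 0.26, Hsp90b1 0.15, Creld2 0.14 and P4hb 0.14, with interactions of 0.60, 0.41, 0.60 and 0.63 (SE 0.26, 0.36, 0.30 and 0.17). Map1lc3b was level in Ad-LacZ at 0.03 (interaction 0.64, SE 0.12, limma's adjusted p = 0.0958). Lysosomal genes had a median of 0.30 in Ad-LacZ and a median interaction of 0.03. The stellate cell markers had opposite signs: the median was -0.64 in Ad-Cre and 1.08 in Ad-LacZ, where 3 rose. Actg2 passed in both arms in opposite directions, -1.06 in Ad-Cre and 0.79 in Ad-LacZ (interaction -1.84, SE 0.37, limma's adjusted p = 0.138).

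**Figure D5:**
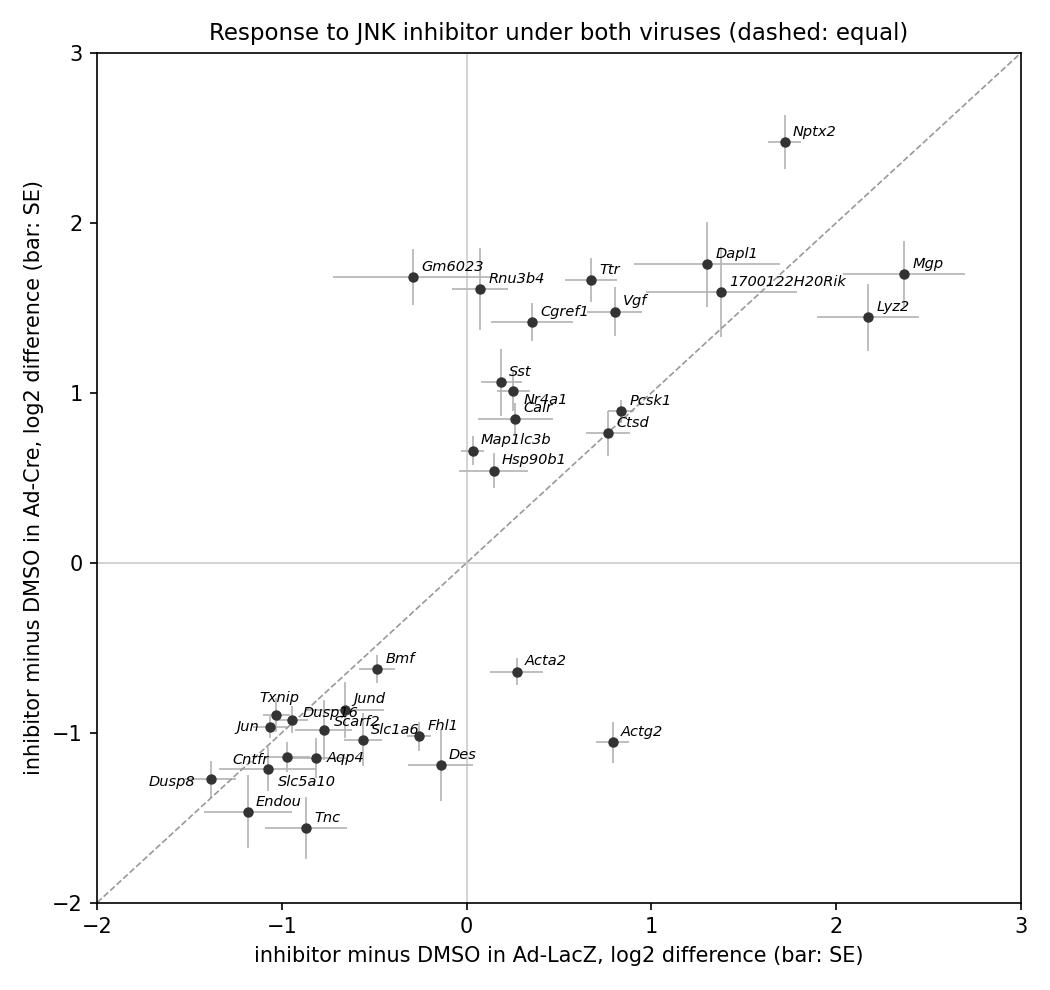
Log2 difference with JNK inhibitor in Ad-LacZ (horizontal axis) and in Ad-Cre (vertical axis) for 34 named genes tested under both viruses, with SE bars from the separate limma fits; the dashed line marks equal responses. Jun, Dusp8, Dusp16 and Txnip lie near the line, Calr, Map1lc3b and Sst lie above it, and Acta2 and Actg2 are below 0 in Ad-Cre and above 0 in Ad-LacZ.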

How the data were processed

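RNA was extracted from 16 cultures of transduced islet cells, and poly(A) libraries were sequenced as paired-end reads. The deposited RPKM values were made by the authors from reads aligned to the mouse genome (GRCm38 per the submitters' processing notes; the aligner's settings and the handling of strand are not given in the sources used here). Gene positions were taken from the GENCODE annotation of GRCm38. Columns were matched to samples by their descriptions, and 3 columns that matched no label were not used.

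From these values, library factors were computed by TMM (trims of 30% and 5%; multipliers 0.900 to 1.09), and log2(RPKM + 1) was tested with limma 3.58.1 in R 4.3.3 (trended empirical Bayes, preparation as block), for genes above 1 RPKM in at least 4 of 8 libraries. P-values were Benjamini-Hochberg adjusted over all genes tested, and a call needed an adjusted p under 0.05 and a fold above 1.2. An interaction of virus and inhibitor was fitted over the 16 libraries. The same-numbered libraries share an islet preparation, and the residuals of each Ad-Cre library correlated best with the inhibitor library of its own number (0.819, 0.695, 0.647 and 0.641 for F1, M1, M2 and F2). With 4 pairs the smallest two-sided exact permutation p for a single gene is 0.125, so no such test is given. Whole reads were recovered from the steps of the RPKM values for depth only (93.8% to 95.1% of low values within 0.03 of a whole read).

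Named genes were the 12 largest rises and falls among called genes that moved the same way in every preparation, the members of 46 gene lists that bear on JNK, the UPR, p53 and islet cells, the genes the study names for such cultures, and the targeted gene. The rule's 5 and 5 genes for the interaction are empty, since none passed. Members and lists were chosen with earlier results of these data known. The code was tested on simulated data. Promoters are RefSeq sequences (GRCm38.p6), matched by symbol for 8962 of 11503 genes tested. Figures were drawn with matplotlib 3.10.9. Alternatives were RPKM as deposited, quantile normalization, a pseudocount of 0.1, no filter or a filter at 0.1 RPKM, no block, all 16 libraries in one fit, no trend, array weights and leaving out each preparation.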

Additional observations from a re-analysis of the deposited data

Results flagged for a closer look

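Among 171 named genes, each in both groups of 4 libraries, the highest or lowest library stood far from the other 3 in 20 of 342 groups, 11 in Ad-Cre and 9 with inhibitor. Chance flags about 1 in 20 such groups. Preparation M2 was the library that stood apart in 12 of them.

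In Ad-Cre, M2 stood above the others for Dusp1 (17.2 RPKM, next 8.10), Dusp16 (5.16, next 4.09), Plvap (17.7, next 6.01), Hspb1 (44.5, next 18.1), Ier2 (9.84, next 7.13) and Mgp (9.00, next 2.91). With inhibitor, M2 was highest for Pvr (7.14, next 3.74), Gm6023 (50.9, next 21.0), Egr1 (7.41, next 4.64) and Jdp2 (4.76, next 1.82) and lowest for Cntfr (3.34, next 5.86) and Sesn2 (23.9, next 39.6). Ad-Cre F1 was highest for Gcg (20810 RPKM, next 12140), Map1lc3b (31.6, next 24.9) and Psmc4 (56.3, next 47.3), and inhibitor F1 for Ctsb (211.7, next 161.8) and Selenos (54.5, next 47.3). Ad-Cre F2 was highest for Hspa5 (1468 RPKM, next 1114) and inhibitor F2 for Txnip (136.2, next 107.7). Ad-Cre M1 was lowest for Cdkn1a (168.4, next 212.6). Every called gene among these moved the same way in 4 of 4 preparations, as did all 690 called genes, so this says nothing further about the libraries that stood apart.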

How the results depend on the processing

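The count of 690 genes was 239 with quantile normalization, 31 without a filter, 2710 with array weights and between 0 and 2404 when 1 preparation was left out. It was 0 without F1, without M1 or without F2 and 2404 without M2. Without the replicate block, that is without pairing the libraries by preparation, the count was 0 for the adjusted p and 1012 instead of 2120 for the unadjusted p, and 24 instead of 42 for Ad-LacZ. The interaction called 2 genes without the block and 1 with quantile normalization. In Ad-LacZ RPKM as deposited called 19 genes, a pseudocount of 0.1 called 66, and leaving out 1 preparation gave 0 to 204. Of 108 called genes named in the text, none changed sign under these settings; 59 were no longer called with quantile normalization, 36 with RPKM as deposited, 97 without a filter, 17 with a filter at 0.1 RPKM, 22 in the fit of all 16 libraries, 4 without the trend, 108 without the block, and 107, 107 and 106 without F1, M1 and F2, and none was lost with a pseudocount of 0.1, with array weights or, for those tested, without M2. The shared genes with the 690 were 439 of 919 for RPKM as deposited and 224 of 239 for quantile normalization. Medians that changed sign included, with quantile normalization, those of ER chaperones (-0.029), ERAD (-0.0287), tRNA synthetases (-0.0422), translocon and N-glycosylation genes (-0.0297), COPII and COPI genes (-0.0225) and NRF2 targets (-0.0593); with RPKM as deposited, tRNA synthetases (-0.0277), COPII and COPI genes (-0.00406) and NRF2 targets (-0.0637); and with array weights the list NRF2 targets and metallothioneins (-0.00617). Medians near 0 changed sign too: those of UPR sensors, beta cell transcription factors and glycolysis with both scalings, and of p53 targets (-0.11), acinar markers, autophagy (-0.12) and MHC class I genes with RPKM as deposited. The cause of these changes was not tested. Depth limited low genes, and only RPKM above 1 was tested.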
